A study of Homo sapiens with 6 samples.

Results

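The genes described here make up the retinoic acid branch of the PANC-1 transcriptome: the binding proteins CRABP1 and CRABP2, the vitamin A receptor STRA6, the retinoic acid receptors RARA, RARB and RARG, the retinoid X receptors RXRA and RXRB, and the degrading enzyme CYP26B1. They were chosen by symbol from the authors' table of differential expression, with the value of CRABP2 already known. All 9 are among the 19830 genes of that table. Of these, 7 were tested by the authors and 2, CRABP1 and RARB, had too few reads for an adjusted p. PANC-1 is an established human line grown from a pancreatic ductal adenocarcinoma. The cells received SOX9 siRNA (2 libraries) or control siRNA (2 libraries), each at 25 nM with Lipofectamine 3000. They were pooled and harvested 48 hours later for stranded total RNA sequencing. SOX9 siRNA targets the messenger of SOX9, a transcription factor found in progenitor and duct cells of the pancreas. Nothing in the labels says that libraries of a group came from separately grown cultures, so p-values cover only the spread among these libraries, and that spread may be technical.

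Retinoic acid is made inside cells from vitamin A (retinol). STRA6 takes retinol up at the cell surface, dehydrogenases oxidise it, and the small cytoplasmic proteins CRABP1 and CRABP2 bind the product. CRABP2 hands retinoic acid to nuclear receptors, while CRABP1 is linked mainly to its delivery to degrading enzymes. The receptors RARA, RARB and RARG bind DNA as pairs with an RXR, at direct repeats of a short half-site. Without ligand they hold corepressors on the gene, and with ligand they recruit coactivators. The CYP26 enzymes hydroxylate retinoic acid and so end the signal. In the embryo this pathway takes part in forming the pancreas from the gut tube.

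Libraries are called a and b within each siRNA group, letters that stand for no replicate number in the labels. Reads per library were worked out from the digits of the authors' mean normalized counts, for 98.9% of all genes and for all 9 retinoid genes. A normalized count is the library's reads divided by its size factor, and it depends on transcript length. Levels are therefore compared mainly between libraries. Where mean counts of different genes are set side by side, the comparison is rough. The reads over 19612 genes came to 35156507 and 32108411 in the SOX9 siRNA libraries, and to 42787152 and 35598115 in the control libraries. SOX9 itself stood at 1346 and 2217 normalized counts in SOX9 siRNA libraries a and b, against 3019 and 3350 in control libraries a and b. The SOX9 siRNA libraries thus held 42.3% and 69.6% of the control mean. The SOX9 log2 fold change in the authors' deposited table was -0.84 with a standard error of 0.26, and its DESeq2 adjusted p was 0.0643. The table's header does not name the numerator. Its fold changes are read as SOX9 siRNA over control siRNA because the value of SOX9 is negative, so SOX9 checks nothing, and every direction would turn if that reading were wrong.

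The libraries did not group by siRNA alone. Over 7561 tested genes with a mean count of at least 1000, the median absolute log2 ratio between SOX9 siRNA libraries a and b was 0.126. SOX9 siRNA library b and control library b were closer, at 0.10. Control libraries a and b differed by 0.194, and the other pairs across groups ran from 0.159 to 0.260. Library a minus library b correlated across these genes at 0.64 between the SOX9 siRNA and control groups, a description over genes that share libraries. The part of this pattern in the results was not tested, and CRABP2 and RARA are given below without each library. The keratins of duct and other simple epithelia KRT8, KRT18 and KRT19 had mean counts of 203350, 130452 and 99583. All 4 endothelial markers were at 3.87 or below and PTPRC of leukocytes was at 2.28, while ITGAM of myeloid cells reached 105 and PDGFRB of fibroblasts 32.0. CD14 of monocytes had 55.3 and 90.4 normalized counts in SOX9 siRNA libraries against 19.5 and 43.6 in controls, with a DESeq2 adjusted p of 0.440 per the authors' deposited table, and its part in the results was not tested. Of 8 epithelial and duct markers, 0 were called higher and 1 lower, called meaning an adjusted p under 0.05, while 6 had log2 fold changes above 0 and the median was 0.38. The marker called lower was EPCAM, at -1.76 on the log2 scale per the authors' deposited table. KRT8 was at 0.55, KRT18 at 0.50 and KRT19 at 0.50, with DESeq2 adjusted p of 0.0786, 0.106 and 0.259 per the authors' deposited table. The part of these markers in the results was not tested.

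Start-site sequence is shown for CRABP2, the member that was called, and for RARB and RXRA, whose windows hold a retinoic acid element and a SOX motif. Windows run from 250 bases before to 50 bases after each start, from RefSeq on GRCh38.p14, and 20 windows matched the 9 members. Capitals mark the half-site AGGTCA, its variants (AGTTCA, or GGGTCA, or else GGTTCA) and the SOX core ACAAT, each read on both strands. CRABP2 is at chr1:156705735-156706034 on the minus strand, RARB at chr3:25428013-25428312 on the plus strand and RXRA at chr9:134326205-134326504 on the plus strand.
CRABP2: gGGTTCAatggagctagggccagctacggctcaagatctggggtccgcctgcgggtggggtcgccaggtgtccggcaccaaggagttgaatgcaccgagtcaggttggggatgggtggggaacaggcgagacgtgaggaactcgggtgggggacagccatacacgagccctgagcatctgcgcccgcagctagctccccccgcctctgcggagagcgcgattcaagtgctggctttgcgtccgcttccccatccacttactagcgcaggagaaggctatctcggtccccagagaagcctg
RARB: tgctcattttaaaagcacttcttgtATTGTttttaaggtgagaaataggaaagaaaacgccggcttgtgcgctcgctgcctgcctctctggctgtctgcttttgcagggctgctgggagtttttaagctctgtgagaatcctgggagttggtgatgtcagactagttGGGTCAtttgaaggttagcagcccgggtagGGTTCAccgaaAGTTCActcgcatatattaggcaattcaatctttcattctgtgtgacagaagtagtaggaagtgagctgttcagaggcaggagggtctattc
RXRA: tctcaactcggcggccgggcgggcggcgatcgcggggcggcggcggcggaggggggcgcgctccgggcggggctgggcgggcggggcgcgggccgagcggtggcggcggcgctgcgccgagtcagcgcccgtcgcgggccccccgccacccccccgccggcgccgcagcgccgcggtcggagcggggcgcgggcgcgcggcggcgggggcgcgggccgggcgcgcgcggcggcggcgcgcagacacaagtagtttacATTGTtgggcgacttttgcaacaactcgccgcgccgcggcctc
The CRABP2 window holds 1 half-site, at its upstream end, and no ACAAT. The RARB window holds the retinoic acid response element long known from this promoter, GGTTCA and AGTTCA in direct repeat with 5 bases between them, beginning at position -53 from the start. The RXRA window has an ACAAT on the minus strand at position 8 after the start, inside the longer SOX motif AACAATG.

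Half-sites occurred in 8 of the 20 member windows, from 5 genes, and in 38.6% of all 35116 windows of the same length. A direct repeat spaced by 5 bases was found in the RARB window alone among the members, and in 0.0883% of all windows. The spacing of 2 bases was found in 0 member windows and in 0.0399% of all. ACAAT was in 3 member windows, of RARB and RXRA, against 27.4% of all windows, and AACAATG was in 1 member window against 3.33% of all. These matches describe letters in a short window and say nothing of binding, and the SOX9 ChIP samples were not analysed here.

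CRABP2 was higher after SOX9 siRNA and was the sole member called at an adjusted p under 0.05. Its normalized counts were 41196 and 35080 in SOX9 siRNA libraries a and b, against 16868 and 23040 in control libraries a and b. Both SOX9 siRNA libraries lay above both controls, and the ratio of any SOX9 siRNA library to any control library ran from 1.52 to 2.44. The means were 38138 ± 4325 in SOX9 siRNA cells and 19954 ± 4364 in control cells (SD, n = 2 each). The authors' deposited table gave CRABP2 a 1.91-fold rise (95% interval 1.43 to 2.55), a log2 fold change of 0.93 with a standard error of 0.21. Its p of 9.98e-06 ranked 53 among 14063 tested genes per the authors' deposited table, and its DESeq2 adjusted p was 0.00252. Members were chosen with this value known, so it is given as a description.

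The call on CRABP2 depended on the test. Against a change of at least 1.2-fold in place of no change, the adjusted p of a Wald test on the authors' values was 0.29. In limma on the recovered reads CRABP2 had an unadjusted p of 0.00249 and an adjusted p of 0.367. That fit called 0 of 13847 genes, with 738 higher and 801 lower at an unadjusted p under 0.05. Without SOX9 siRNA library a the log2 ratio of CRABP2 means was 0.81, and without SOX9 siRNA library b it was 1.05. Without control library a it was 0.73, and without control library b 1.18. Both SOX9 siRNA libraries lay above both controls, so leaving out any library could not turn the direction. Its sameness in all 4 reduced sets adds no further evidence. The size turned most on the 2 controls, whose own counts differed by a larger ratio than those of the SOX9 siRNA libraries. In bulk RNA, fewer cells of a type and less RNA per cell cannot be told apart.

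CRABP1, the other cellular retinoic acid binding protein, had few reads. It had 19.1 and 11.0 normalized counts in SOX9 siRNA libraries a and b, against 19.5 and 11.2 in control libraries a and b. Library a was the higher one in each group by about the same amount, so the groups overlapped fully. Its log2 fold change in the authors' deposited table was -0.02 with a standard error of 0.92, an interval from -1.82 to 1.77 that leaves the size of any change undetermined at this depth.

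STRA6, which brings retinol into the cell, had 44.3 and 69.4 normalized counts in SOX9 siRNA libraries a and b, against 31.0 and 47.7 in control libraries a and b. The groups overlapped, since control library b lay above SOX9 siRNA library a. The authors' deposited table gave STRA6 a log2 fold change of 0.53 with a standard error of 0.57 and a DESeq2 adjusted p of 0.842. Library b was the higher one in both groups, by a similar proportion.

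**Figure D1:**
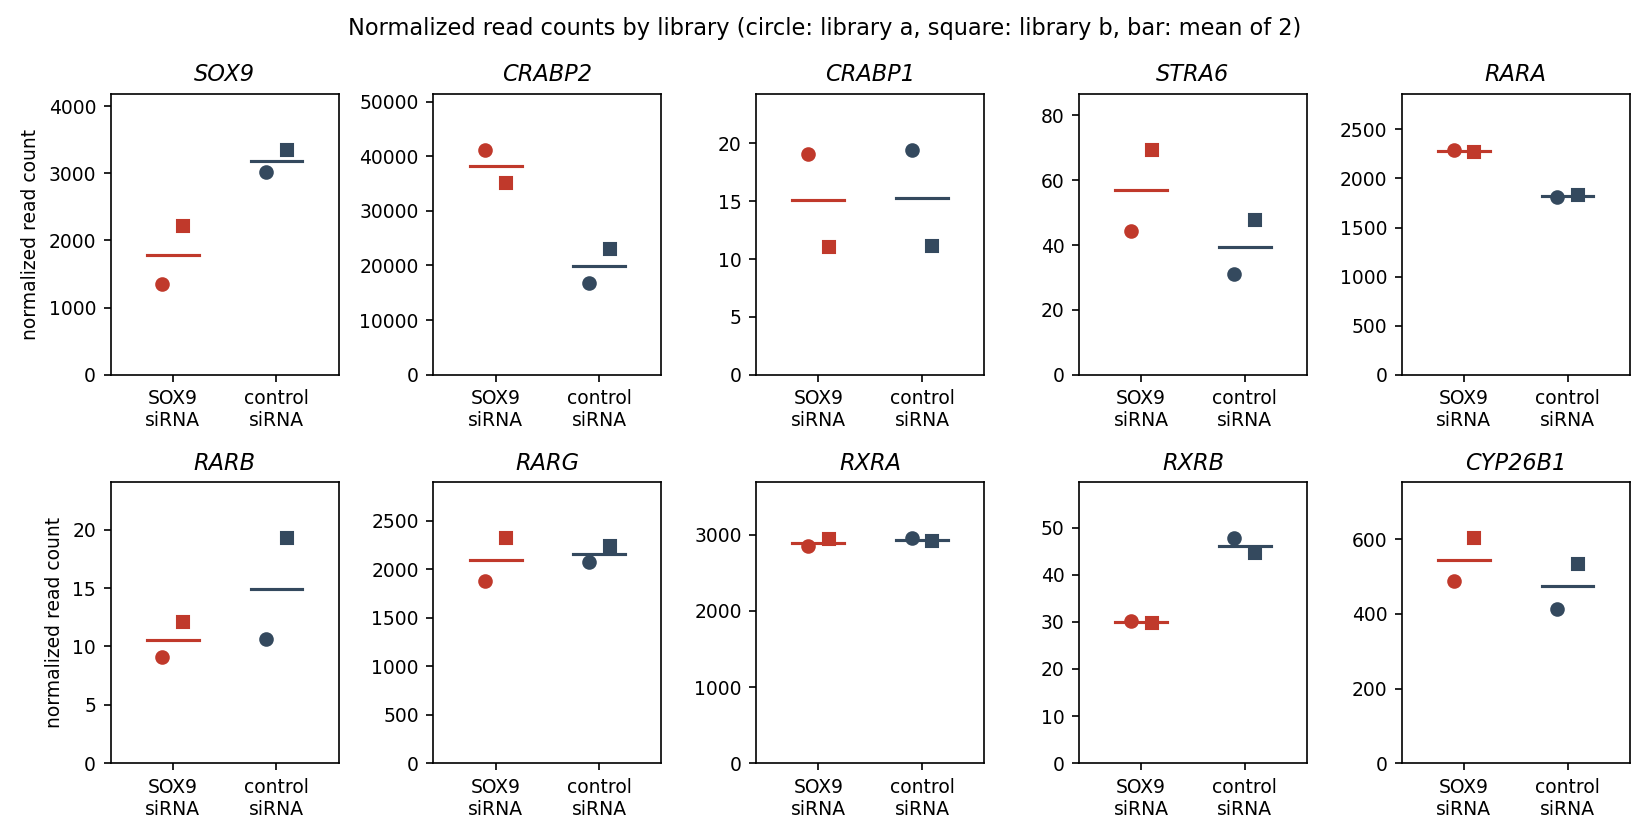
Normalized read counts (vertical axes, linear from 0) of SOX9 and the 9 retinoid genes, SOX9 siRNA libraries in red and control libraries in dark blue; circles are libraries a, squares libraries b, and bars the mean of 2. CRABP2 separates at 35080 and above in SOX9 siRNA libraries against 23040 and below in controls, and RARA and RXRB also separate, by smaller differences.

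Of the receptors, RARA was the one whose libraries were higher after SOX9 siRNA. RARA is the widely expressed retinoic acid receptor. Its normalized counts were 2293 and 2271 in SOX9 siRNA libraries a and b, against 1809 and 1827 in control libraries a and b. The spread within each group was small beside the gap, with means of 2282 ± 15.7 in SOX9 siRNA cells and 1818 ± 13.0 in control cells (SD, n = 2 each). Every ratio of a SOX9 siRNA to a control library lay between 1.24 and 1.27. The authors' deposited table gave RARA 1.26-fold (95% interval 1.01 to 1.56), with an unadjusted p of 0.0427 and a DESeq2 adjusted p of 0.412. RARA did not pass the adjusted threshold, and the standard error of its log2 fold change in that table was 0.16. Leaving out any 1 library kept its log2 ratio between 0.32 and 0.34. That range restates the small spread among the same libraries and adds no further evidence of a difference. The antisense RNA RARA-AS1 lies beside it with a mean count of 86.3 and a log2 fold change of 0.11 per the authors' deposited table. The sources used here do not give whether counting used the strand, so reads of the 2 genes may be mixed.

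RARB, the receptor that is itself a classical retinoic acid target, had few reads. It stood at 9.06 and 12.1 normalized counts in SOX9 siRNA libraries a and b, against 10.6 and 19.3 in control libraries a and b. The groups overlapped. Its log2 fold change in the authors' deposited table was -0.49 with a standard error of 0.98, and without control library b the log2 ratio was -0.0034. RARB thus shows no difference that this depth could separate from the spread between libraries, and its window is the one with the direct repeat shown above.

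RARG, the receptor best known from skin and other epithelia, had 1877 and 2321 normalized counts in SOX9 siRNA libraries a and b, against 2075 and 2236 in control libraries a and b. The control values lay inside the range of the SOX9 siRNA values. The authors' deposited table gave RARG a log2 fold change of -0.04 (95% interval -0.42 to 0.34) and a DESeq2 adjusted p of 0.981.

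RXRA, a common heterodimer partner of the retinoic acid receptors, was even across the libraries. It had 2854 and 2940 normalized counts in SOX9 siRNA libraries a and b, against 2954 and 2920 in control libraries a and b. All 4 libraries lay within a narrow band and overlapped. Its log2 fold change in the authors' deposited table was -0.02 with a standard error of 0.16, the smallest standard error among the tested members. The interval ran from -0.33 to 0.29, and the DESeq2 adjusted p was 0.989.

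RXRB, the second retinoid X receptor, was lower in both SOX9 siRNA libraries by count but did not pass the test. It had 30.2 and 29.8 normalized counts in SOX9 siRNA libraries a and b, against 47.8 and 44.6 in control libraries a and b. The groups did not overlap. The authors' deposited table gave RXRB a log2 fold change of -0.62 with a standard error of 0.56 and a DESeq2 adjusted p of 0.792. These values rest on 30 and 27 reads in SOX9 siRNA libraries and on 54 and 44 reads in control libraries.

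**Figure D2:**
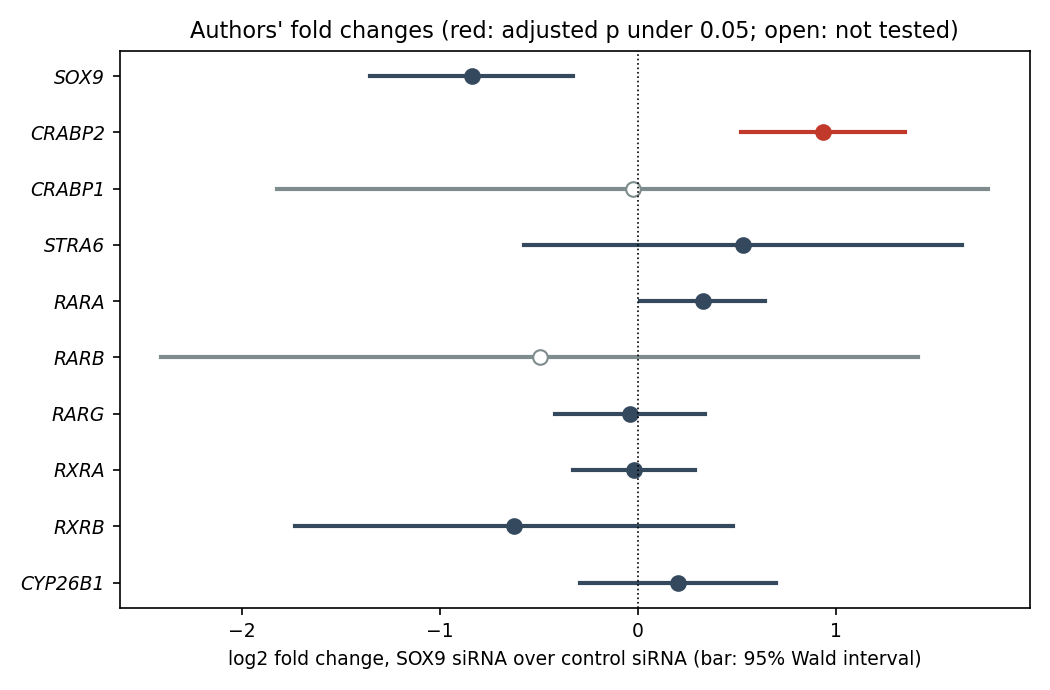
Log2 fold change of SOX9 siRNA over control siRNA (horizontal axis) for SOX9 and the 9 retinoid genes from the authors' deposited table, with 95% Wald intervals as bars; red marks an adjusted p under 0.05 and open circles genes with no adjusted p. CRABP2 at 0.93 is the sole red point, and the intervals of CRABP1 and RARB are the widest.

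The low counts of RXRB were shared by its neighbourhood. RXRB lies in the major histocompatibility complex region of chromosome 6. Among the 14 genes on either side of it by RefSeq order, 26 protein-coding genes were in the table, with a median mean count of 14.7. The highest of them, RPS18, a ribosomal protein gene singled out after values were seen, had a mean count of 666.1. The median over 718 protein-coding genes of chromosome 6 was 674.4, and 0 of the 26 neighbours exceeded it. Around each of the other 8 members, 10 to 15 of 22 to 26 such neighbours exceeded the median of their own chromosome. The count of RXRB is therefore uncertain as a measure of its RNA, and the cause was not tested.

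**Figure D3:**
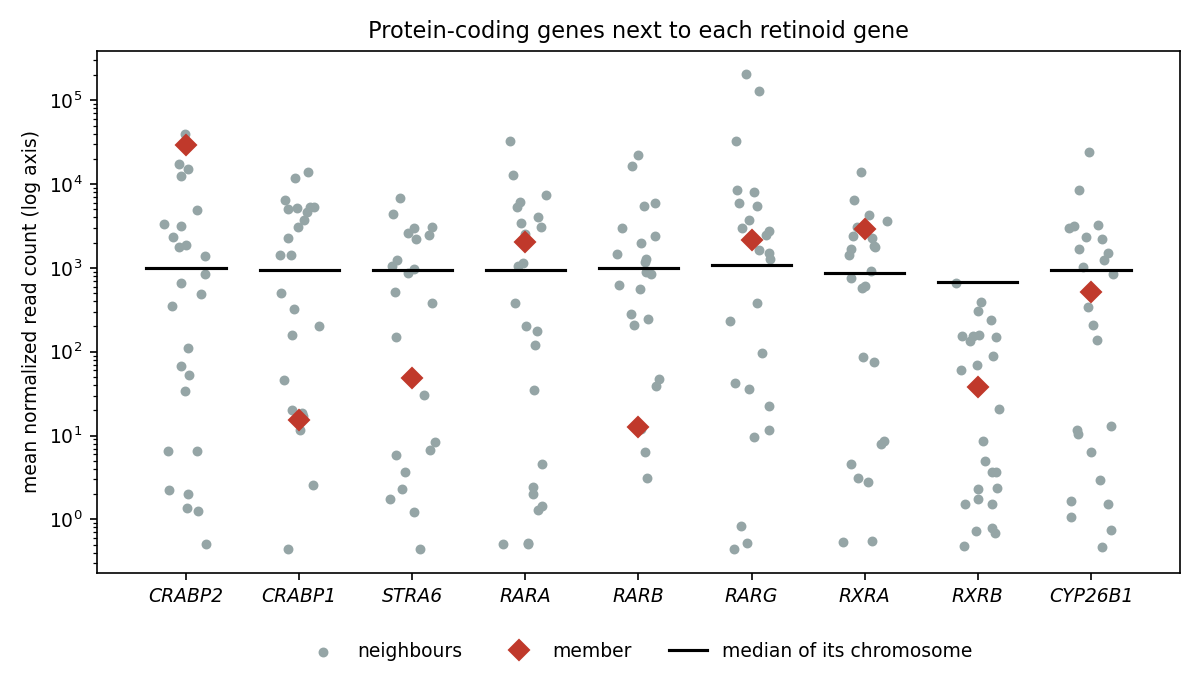
Mean normalized read count over 4 libraries (vertical log axis) of protein-coding genes within 14 genes on either side of each retinoid gene (grey), the gene itself (red diamond) and the median of its chromosome (black line). Around RXRB 0 of 26 neighbours lie above the line at 674.4, and around every other gene at least 10 do.

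CYP26B1, which hydroxylates retinoic acid for clearance, had 488.0 and 602.7 normalized counts in SOX9 siRNA libraries a and b, against 413.0 and 534.6 in control libraries a and b. Libraries a were the lower ones in both groups, and the groups overlapped. The authors' deposited table gave CYP26B1 a log2 fold change of 0.20 with a standard error of 0.25 and a DESeq2 adjusted p of 0.879. Its relatives, held in the list of breakdown enzymes, did not pass the test either. CYP26A1, the isoform usually most inducible by retinoic acid, had 31.2 and 24.2 normalized counts in SOX9 siRNA libraries a and b, against 40.7 and 16.2 in control libraries a and b. CYP26C1 had a log2 fold change of -0.07 per the authors' deposited table.

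Over the retinoid genes as a set, 1 of 7 tested members was called higher and 0 were called lower. Among all 14063 tested genes 0.868% were called higher and 0.939% lower, 1.81% in either direction. Because the members were chosen with these values known, nothing is read from that difference. At an unadjusted p under 0.05, 2 members were higher, CRABP2 and RARA, and 0 were lower, beside 4.98% and 6.15% of all tested genes. Among the 9 members, 2 had SOX9 siRNA libraries wholly above the controls and 1 had them wholly below. Such separation was common, at 21.8% above and 24.5% below, 46.3% together, of 13847 tested genes with recovered reads. The median log2 fold change was 0.20 over the 7 tested members and -0.02 over all tested genes.

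**Figure D4:**
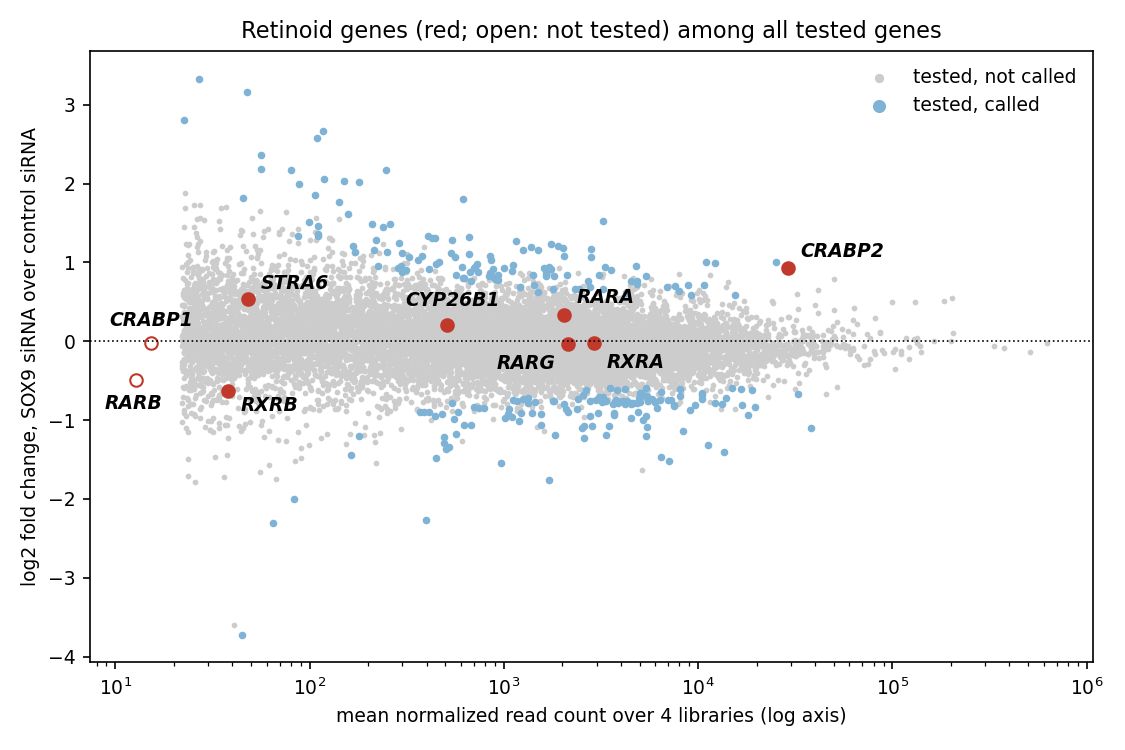
Log2 fold change of SOX9 siRNA over control siRNA (vertical axis) against mean normalized read count (horizontal log axis) for all 14063 tested genes, from the authors' deposited table; blue marks called genes, red the 7 tested retinoid genes and open red circles the 2 not tested. CRABP2 is the labelled point at a mean count of 29046 and a log2 fold change of 0.93.

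The fold change of CRABP2 was number 74 in size among the 122 genes called higher. Leaving aside symbols with a dash or beginning LOC, MIR or SNOR, 473 other tested genes lay within 2 times the CRABP2 mean count of 29046. Of these, 2 were called higher and 8 lower, with a median log2 fold change of -0.08. The sole one with a larger log2 fold change, and the most like CRABP2 over this contrast of 2 siRNA groups, was PTRF, now CAVIN1, a coat protein of caveolae. PTRF had 36759 and 30515 normalized counts in SOX9 siRNA libraries a and b, against 12866 and 20535 in control libraries a and b. The pattern over the 4 libraries was that of CRABP2, with control library a lowest and SOX9 siRNA library a highest. PTRF had a log2 fold change of 1.01 per the authors' deposited table, 0.08 above that of CRABP2, and a DESeq2 adjusted p of 0.00848.

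The next genes by likeness were CANX, a chaperone of the endoplasmic reticulum, RPS29 of the small ribosomal subunit, the collagen gene COL5A2, and ACLY, which makes acetyl-CoA from citrate. Their log2 fold changes in the authors' deposited table were 0.79 for CANX, 0.64 for RPS29, 0.60 for COL5A2 and 0.58 for ACLY. Of these, ACLY was called higher, with a DESeq2 adjusted p of 0.0416 per the authors' deposited table, and 19967 and 17073 normalized counts in SOX9 siRNA libraries against 11800 and 12947 in controls. The genes beside CRABP2 on chromosome 1 were not called. NES, which encodes the filament protein nestin, had a log2 fold change of 0.23, and ISG20L2, an exonuclease gene, one of 0.50 with a DESeq2 adjusted p of 0.194, both per the authors' deposited table.

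The rest of the pathway was read from 8 lists of 134 genes, chosen with earlier results of these data known. Of these, 92 were tested by the authors, 0 were called higher and 2 were called lower, PPARD and GPRC5A, beside 0.868% higher and 0.939% lower of all tested genes. At an unadjusted p under 0.05, 3 were higher and 9 lower, beside 4.98% and 6.15% of all tested genes. The median log2 fold change over the 92 was 0.02, with 51 above and 41 below 0, beside -0.02 over all tested genes. Of 91 list genes with recovered reads, 16 had SOX9 siRNA libraries wholly above and 17 wholly below the controls, beside 21.8% and 24.5% of all tested genes with recovered reads.

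Among the retinoid binding and transport genes, 0 of 4 tested were called and the median log2 fold change was -0.06. FABP5, a fatty acid binding protein that can also carry retinoic acid, had 349 and 540 normalized counts in SOX9 siRNA libraries a and b, against 783 and 749 in control libraries a and b. Its libraries did not overlap, yet its log2 fold change of -0.79 had a DESeq2 adjusted p of 0.119 per the authors' deposited table. RBP7, a retinol binding protein, had a log2 fold change of -0.50 per the authors' deposited table.

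The list of RXR partners held the nuclear receptor to which FABP5 is known to deliver retinoic acid, PPARD, and 1 of 9 tested genes, PPARD itself, was called lower. PPARD had 247 and 356 normalized counts in SOX9 siRNA libraries a and b, against 612 and 549 in control libraries a and b. Both SOX9 siRNA libraries lay below both controls. The authors' deposited table gave PPARD a log2 fold change of -0.95 with a standard error of 0.27 and a DESeq2 adjusted p of 0.0331. In limma on the recovered reads the adjusted p of PPARD was 0.367. Its limma log2 fold change was -0.70 without SOX9 siRNA library a and -1.23 without SOX9 siRNA library b. The gene of the list with the most reads, PPARG, the receptor of fat cell formation, had a log2 fold change of -0.09 per the authors' deposited table. The thyroid hormone receptor THRA had one of 0.58 with a DESeq2 adjusted p of 0.589 per the authors' deposited table, and the list's median was 0.00.

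Of the enzymes of synthesis and storage, 0 of 16 tested were called and the median was 0.01. ALDH1A3, a retinaldehyde dehydrogenase that makes retinoic acid, had 17044 and 14355 normalized counts in SOX9 siRNA libraries a and b, against 16227 and 14763 in control libraries a and b. These overlapped, and its log2 fold change in the authors' deposited table was 0.02 with a standard error of 0.17. RDH11 and RDH10, which interconvert retinol and retinaldehyde, had log2 fold changes of -0.47 and -0.42 per the authors' deposited table, with DESeq2 adjusted p of 0.207 and 0.414. Both had SOX9 siRNA libraries wholly below the controls. Of the breakdown list, 0 of 6 tested were called and the median was -0.07. CYP1B1, a broad-range cytochrome, had a log2 fold change of -0.41 and POR, the reductase that supplies cytochromes with electrons, one of -0.13, both per the authors' deposited table.

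**Figure D5:**
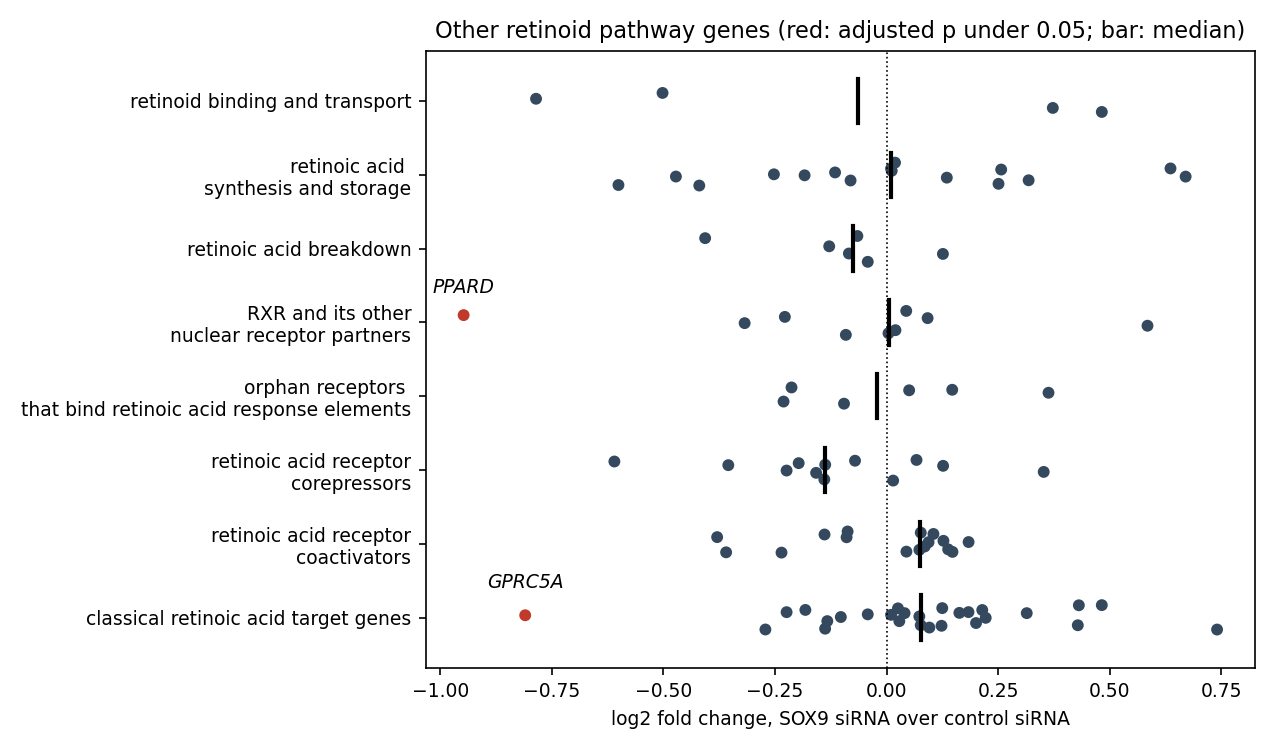
Log2 fold change of SOX9 siRNA over control siRNA (horizontal axis) from the authors' deposited table for the tested genes of 8 retinoid pathway lists (1 row each, 1 point per gene); black bars are list medians and red points have an adjusted p under 0.05. PPARD at -0.95 and GPRC5A at -0.81 are the red points, and the medians lie between -0.14 and 0.08.

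Corepressors and coactivators of the receptors held 0 called genes of 12 and 16 tested. Their medians were -0.14 for corepressors and 0.08 for coactivators. TBL1X, a part of corepressor complexes, had 607 and 842 normalized counts in SOX9 siRNA libraries a and b, against 1101 and 1109 in control libraries a and b. Both SOX9 siRNA libraries lay below both controls, yet its log2 fold change of -0.61 had a DESeq2 adjusted p of 0.185 per the authors' deposited table. HDAC1, the corepressor gene with the most reads, had one of -0.07 per the authors' deposited table. Among coactivators the acetyltransferase KAT2B had a log2 fold change of -0.38, the arginine methyltransferase CARM1 one of -0.36 and its relative PRMT1 one of -0.09 per the authors' deposited table. The orphan receptors that compete for the same DNA elements held 0 called of 6 tested, with a median of -0.02. NR2F1 had a log2 fold change of 0.36, NR2F2 of -0.23 and NR2F6 of 0.15 per the authors' deposited table, and none of the 3 passed.

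Classical retinoic acid target genes held 0 genes called higher and 1 called lower of 27 tested, with a median of 0.08. The gene called lower was GPRC5A, an orphan receptor first found as retinoic acid induced. GPRC5A had 12423 and 11957 normalized counts in SOX9 siRNA libraries a and b, against 25378 and 17358 in control libraries a and b. Its log2 fold change was -0.81 with a standard error of 0.22 and a DESeq2 adjusted p of 0.0217 per the authors' deposited table, and its limma adjusted p was 0.376. Without control library a its limma log2 fold change was -0.51, and without control library b -1.06. RET, a receptor tyrosine kinase, had 1160 and 1500 normalized counts in SOX9 siRNA libraries a and b, against 601 and 991 in control libraries a and b. These did not overlap, but the log2 fold change of 0.74 for RET had a DESeq2 adjusted p of 0.197 per the authors' deposited table. TNFAIP2, the target gene with the most reads, had a log2 fold change of 0.04 with a standard error of 0.21 per the authors' deposited table. There DHRS3, a retinaldehyde reductase, had one of 0.01 (standard error 0.23) and TGM2, a transglutaminase, one of 0.03 (standard error 0.35). The TGM2 interval ran from 0.64 to 1.63-fold. TGM2 had 2679 and 5251 normalized counts in SOX9 siRNA libraries a and b, against 2896 and 4895 in control libraries a and b. The homeobox gene HOXB4 had 1805 and 1819 normalized counts in SOX9 siRNA libraries a and b, against 1261 and 1432 in control libraries a and b, with a DESeq2 adjusted p of 0.259 per the authors' deposited table.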

How the data were processed

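Per the submitters' processing notes, the authors used HISAT2 2.0.5, featureCounts and DESeq2 1.18.1 for RNA; settings, annotation and strand of counting are not given in the sources used here, and builds hg19 and mm10 are named without a role. Reads were pairs of 100 bp, per the labels. The authors' mean count is a signal, reads divided by size factors and averaged over 4 libraries, per the file headers. The deposited log2 fold changes and standard errors are the authors', as are the Wald statistic, a score, and the p-value and adjusted p-value. Genes with an adjusted p under 0.05, among 14063 tested, are termed called. The main results are the authors' own comparison, as the design foresaw for a file without counts per library.

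Whole reads per library were solved from the deposited means. Genes with 2 reads gave 4 size factors (0.994 and 0.908 for SOX9 siRNA, 1.13 and 0.986 for control siRNA). Whole-number combinations were checked against the deposited log2 fold changes to within 5e-06, or 1e-06 above a mean of 10000. The 5224 genes whose mean count times 4 was at most 60, RARB included, had 1 solution each and skipped this check. Reads were solved for 19612 genes, 13847 of them tested, and 172 genes with means above 30000 were not tried. CRABP2 had 157 whole-number solutions, of which 1 met the tolerance, and each other member had 1. limma 3.58.1 with a trended prior was run on log2(normalized count + 1), an alternative chosen after seeing the data. Intervals are 95% Wald intervals of 1.96 standard errors. The solving of reads and the calling by adjusted p were tried on simulated data, and the outcome is not given here. That simulation took the recovered size factors as given. It did not cover limma, the fits that leave out a library or the motif search.

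The members and lists were chosen with earlier results of these data known. Named genes were the members, SOX9, the cell type markers, and each list's called genes, its 2 smallest p and its most abundant tested gene. Also named were the 5 genes nearest CRABP2 in log2 fold change within 2 times its mean count. Symbols with a dash or beginning LOC, MIR or SNOR were left aside for those 5. CYP26A1, CYP26C1, DHRS3, TGM2 and HOXB4, genes of the lists, and the genes next to a member were added after their values were seen. The cell type lists held epithelial, leukocyte, endothelial, fibroblast, acinar and endocrine markers; the 3 acinar and 1 endocrine markers in the table had mean counts of 2.95 or below. The values of 1 gene that this rule selects are left out. The 2 SOX9 ChIP samples were not analysed here.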

Additional observations from a re-analysis of the deposited data

How the results depend on the processing

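The call on CRABP2 and the absence of members called lower held under adjustment over every gene, mean count minimums of 10 and 100, centring, and an adjusted p under 0.1, with an adjusted p of 0.00205 to 0.00355 for CRABP2. At an adjusted p under 0.1, 201 genes were called lower, against 132 at 0.05. The test against a change of at least 1.2-fold called 0 members higher, 19 genes higher, 11 genes lower and 0 list genes lower. limma on the recovered reads called 0 members higher, 0 genes higher, 0 genes lower and 0 list genes lower; at an unadjusted p under 0.05 it had 738 genes higher and 801 lower, with CRABP2 and RARA among the members.

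Leaving out 1 library at a time, a fit that assumes the lone library varies like the other group, limma called 0 to 1 members higher, 0 to 226 genes higher, 0 to 226 genes lower, 0 to 1 list genes higher (RET) and 0 to 1 list genes lower (GPRC5A). The highest counts came without control library b, where CRABP2 had an adjusted p of 0.0347. Without SOX9 siRNA library b there were 19 genes higher and 40 lower and the adjusted p of CRABP2 was 0.115. Without SOX9 siRNA library a and without control library a, limma called 0 genes each. The adjusted p of CRABP2 was 0.859 without SOX9 siRNA library a and 0.689 without control library a. The cause was not tested. Leaving out 1 library at a time, the log2 ratio of CRABP2 ran from 0.73 to 1.18, of RARA from 0.32 to 0.34, of RXRB from -0.67 to -0.57, of STRA6 from 0.17 to 0.88, of CYP26B1 from 0.03 to 0.40 and of RARB from -0.86 to -0.0034. The sign turned for RARG (-0.20 to 0.11), RXRA (-0.04 to 0.0015) and CRABP1 (-0.47 to 0.43), and SOX9 ran from -1.24 to -0.52. No paired analysis was possible because the recovered libraries carry no replicate number. Low read counts limit what can be read from CRABP1, RARB, RXRB and STRA6, whose standard errors ran from 0.56 to 0.98.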
